A study of Homo sapiens with 6 samples.

Results

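The p38 and JNK arms of the MAP kinase network were followed at the transcript level in 10 kinase genes. They were taken by name: MAP3K5, MAP2K3, MAP2K4, MAP2K6, MAP2K7, MAPK8, MAPK9, MAPK11, MAPK13 and MAPK14. Each symbol matched a single row among the 34371 features of the count table, and all 10 passed the filter on low counts that left 13308 features tested. The rule that names them uses no measured value, though earlier results of these data were known when the set was drawn up. The cells were ME-1, a human acute myeloid leukaemia line known to carry the CBFB::MYH11 fusion. There were 3 libraries of ME-1 cells given a vector that overexpresses SPNS2, a sphingosine-1-phosphate exporter, and 3 libraries of ME-1 cells given the empty vector. Infected cells of both groups had been selected before RNA was taken. The sources used here state neither the promoter in the vector nor the time after infection nor the selection agent. Separate cultures are not named for the replicates, so p-values measure only the spread between these libraries, which may be technical. MAPK signalling is named in the title of the series beside SPNS2, and the question taken up here is how transcripts of the stress-activated kinases differed when SPNS2 was overexpressed.

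MAP kinases are switched on in relays. A MAP3K such as MAP3K5 phosphorylates a MAP2K, and the MAP2K phosphorylates a threonine and a tyrosine in the activation loop of a p38 or JNK kinase. In blood cells these arms are best known for their responses to stress and inflammatory cytokines. Their activity is set by phosphorylation, which a transcript count does not measure.

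Library totals ran from 31361562 to 33540256 counts with SPNS2 and from 28605187 to 38489992 counts with the empty vector. The vector SPNS2 row, named as an optimized sequence, stood at 764 to 789 CPM in SPNS2 libraries and at 0 to 0.233 CPM in empty vector libraries, as the labels say. The row of the cells' own SPNS2 gene stood at 49.3 to 52.6 CPM in SPNS2 libraries and at 40.9 to 44.7 CPM in empty vector libraries. Empty vector cells thus also held SPNS2 transcripts. The log2 fold change of this row was 0.25 (adjusted p = 0.00166 by edgeR). Whether reads of the vector sequence were counted in this row was not tested. CPM is the count per 1000000 counts of the library, after TMM scaling had set the libraries to a common level. MPO, KIT, CD33 and CD34 were all present, with MPO at 25135 to 26543 CPM in SPNS2 libraries and 25907 to 26346 CPM in empty vector libraries. The 7 myeloid leukaemia markers summed to 27555 to 29027 CPM with SPNS2 and 27691 to 28145 CPM with the empty vector. Nearly all of that came from MPO and KIT, and little from ANPEP, the only marker of the list not given by itself. KIT was higher with SPNS2, at 2287 CPM against 1567 CPM with the empty vector, a log2 fold change of 0.55. CD33 was lower (22.9 CPM with SPNS2 and 37.4 CPM with the empty vector, -0.71), as was CD34 (101 CPM with SPNS2 and 120.4 CPM with the empty vector, -0.25), and all 3 passed the edgeR test with adjusted p of at most 0.000397. MYH11, whose end is part of the fusion transcript, was near 0, at 2 to 14 counts with SPNS2 and 4 to 8 counts with the empty vector. CBFB, the other gene of the fusion, was at 53.0 to 57.1 CPM with SPNS2 and 51.0 to 52.9 CPM with the empty vector. Why MYH11 was so low in a line known to carry the fusion was not tested. The 4 epithelial markers summed to 141 to 144 CPM with SPNS2 and 119 to 128 CPM with the empty vector, nearly all from EPCAM, while KRT18 and KRT19 had 0 counts. The 5 mast cell markers summed to 10.95 to 11.8 CPM with SPNS2 and 4.32 to 4.56 CPM with the empty vector, most of it from TPSB2 (319 to 358 counts with SPNS2 and 103 to 158 counts with the empty vector). The other lists of markers of other cells summed to at most 16.6 CPM with SPNS2 and 15.3 CPM with the empty vector. The B cell sum was higher with SPNS2, at 8.79 to 9.997 CPM against 7.48 to 8.09 CPM with the empty vector. So was the T cell sum, at 0.895 to 1.08 CPM against 0.590 to 0.773 CPM. The megakaryocyte sum was lower with SPNS2, at 2.17 to 2.55 CPM against 2.92 to 3.22 CPM with the empty vector. The groups overlapped for the monocyte, erythroid and fibroblast sums. CD14 was at 0 or 1 count in every library. The part of these markers in the kinase results was not tested.

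Of the 10 kinases, MAP2K6 and MAPK11 rose with SPNS2, none was called lower and 8 were not called. A call is an adjusted p under 0.05 over all features by edgeR. By that rule 11.9% of all tested features were called higher and 12.6% lower, which over 10 genes comes to about 1 gene each way. The counts of 2 higher and 0 lower are thus near the background for so few genes. At an unadjusted p under 0.05, 3 of the 10 were higher and 2 lower in edgeR, against 18% and 18.2% of all features. DESeq2 also called 2 higher and 0 lower, against 8.79% and 10.3% of all features, and so did limma voom, against 11.9% and 12.4%. The 8 kinases that were not called had log2 fold changes between -0.10 and 0.11. The median absolute log2 fold change was 0.09 over the 10 kinases, against 0.10 over all tested features. SPNS2 and empty vector libraries did not overlap for 6 of the 10 kinases, of which 4 were higher and 2 lower. Among all tested features 40.1% did not overlap, 19.8% being higher and 20.3% lower. In bulk RNA a change in the make-up of the culture and a change in RNA per cell cannot be told apart.

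**Figure D1:**
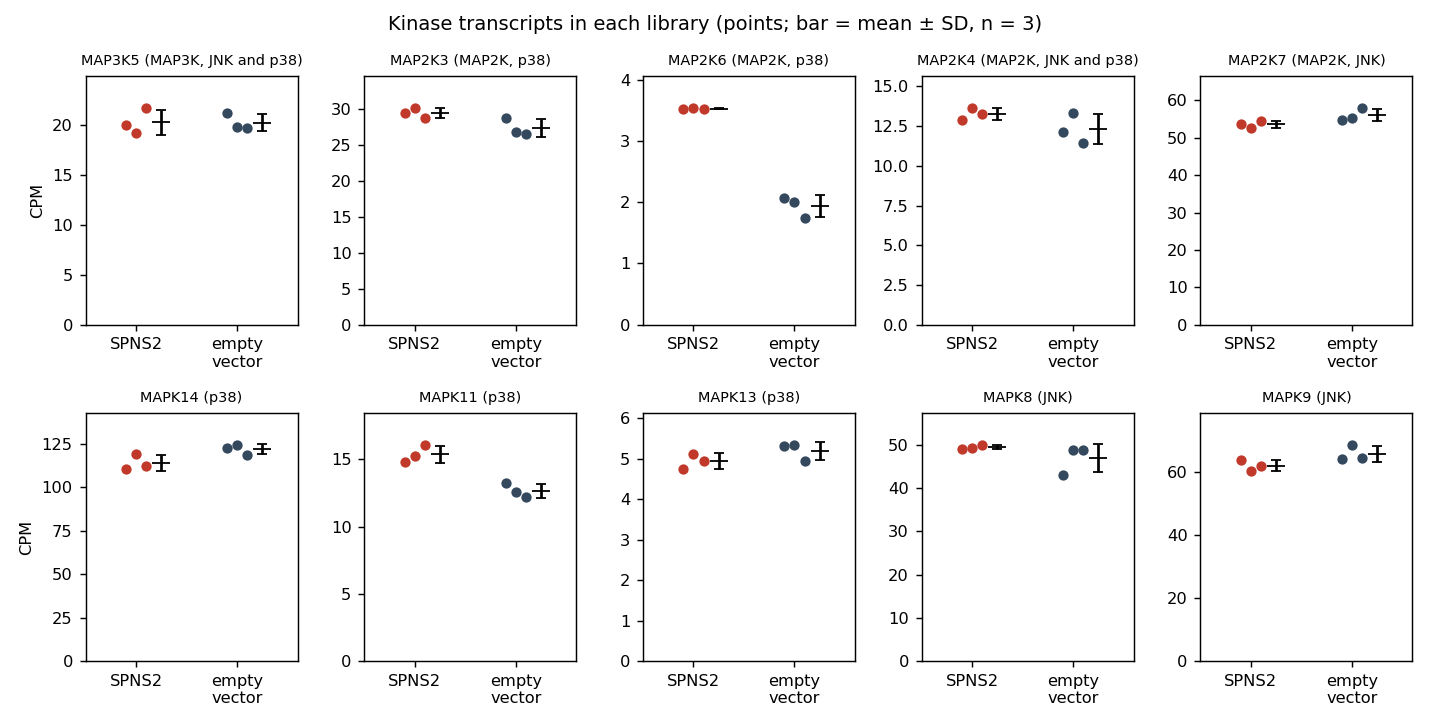
Level of each kinase transcript in CPM (y axis, from 0) in the 3 SPNS2 libraries (red) and the 3 empty vector libraries (dark). Points are libraries and bars are mean ± SD; MAP2K6 and MAPK11 show the clearest gaps, at 3.52 to 3.53 CPM with SPNS2 against 1.74 to 2.08 CPM with the empty vector for MAP2K6, and 14.8 to 16.1 CPM with SPNS2 against 12.2 to 13.3 CPM with the empty vector for MAPK11.

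MAP3K5, also called ASK1, is a MAP3K that feeds both arms after oxidative and other stress. It was at 19.99, 19.2 and 21.7 CPM in SPNS2 libraries 1 to 3 and at 21.2, 19.8 and 19.7 CPM in empty vector libraries 1 to 3. The ranges lay over each other, and the log2 fold change was 0.01 (SE 0.0577, adjusted p = 0.963 by edgeR). Its sign changed with single libraries, from -0.05 without SPNS2 library 3 to 0.04 without SPNS2 library 2.

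MAP2K3 and MAP2K6 are close relatives that phosphorylate p38 kinases and not JNK. MAP2K6 (ENSG00000108984) was the kinase of the set with the largest change. It was at 3.52, 3.53 and 3.53 CPM in the SPNS2 libraries, against 2.08, 2.002 and 1.74 CPM in the empty vector libraries. Every SPNS2 library thus lay above every empty vector library. The log2 fold change was 0.86 (SE 0.131, adjusted p = 0.000812 by edgeR), a 1.82-fold rise. It passed in each of 6 fits that left out a library, with log2 values of 0.79 to 0.92. MAP2K6 is also the scarcest of the 10, with 114, 111 and 119 counts in SPNS2 libraries and 80, 57 and 56 counts in empty vector libraries. Pooled counts gave a ratio of 1.81 with an exact 95% counting interval of 1.52 to 2.17, which covers counting error only. The SD of 0.00881 CPM among SPNS2 libraries was smaller than the 0.329 CPM that counting noise alone gives at this depth, so that SD understates the error. Among the 1580 features called higher, 115 had a larger log2 fold change than MAP2K6.

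MAP2K3 is the more abundant of this pair, at 12.3 against 0.263 CPM per kilobase of longest transcript in SPNS2 libraries. The gap depends on the length used: per kilobase of the median protein-coding transcript the same libraries gave 32.3 CPM for MAP2K3 and 2.34 CPM for MAP2K6. It had 29.4, 30.1 and 28.8 CPM with SPNS2 and 28.7, 26.7 and 26.5 CPM with the empty vector. The groups did not overlap, but the nearest libraries were 28.8 CPM with SPNS2 and 28.7 CPM with the empty vector. The log2 fold change was 0.11 (SE 0.0471, unadjusted p = 0.0465, adjusted p = 0.131), which did not pass. Without empty vector library 1 the adjusted p of MAP2K3 was 0.0506.

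Because the pair acts on the same targets, their ratio was taken within each library, where scaling between libraries plays no part. There were 0.120, 0.117 and 0.123 MAP2K6 counts per MAP2K3 count in SPNS2 libraries and 0.0723, 0.0749 and 0.0657 in empty vector libraries. MAP2K6 thus made up a larger part of the pair in all 3 SPNS2 libraries. The log2 ratio was -3.06 ± 0.0315 with SPNS2 and -3.82 ± 0.0983 with the empty vector (SD, n = 3 each), a difference of 0.76. The exact two-sided permutation p was 0.1, the smallest that 3 against 3 libraries can give, and 0.125 adjusted over the 5 ratios computed. Without single libraries the difference was 0.70 to 0.80.

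The start regions of these genes are given for reference, since MAP2K6 and MAPK11 were the genes that rose and MAP2K3 is the relative that was not called. Each runs from 250 bases before to 50 bases after an annotated start, 5′ to 3′ on the strand of the gene, from RefSeq on GRCh38.p14. All 10 kinases have an entry. Capitals mark matches, on either strand, to 6 motifs. The AP-1 motif was spelled TGANTCA and the CRE, or cAMP response element, TGACGTCA. The GC box was spelled GGGCGG, the CCAAT box by its own name, the TATA box as TATAAA and the RUNX motif as TGTGGT. AP-1 and CRE are the letters known to be bound by JUN and ATF2 proteins, which are JNK and p38 targets, and RUNX those bound by core binding factor.
MAP2K6, start 1, chr17:69414447-69414746, plus strand: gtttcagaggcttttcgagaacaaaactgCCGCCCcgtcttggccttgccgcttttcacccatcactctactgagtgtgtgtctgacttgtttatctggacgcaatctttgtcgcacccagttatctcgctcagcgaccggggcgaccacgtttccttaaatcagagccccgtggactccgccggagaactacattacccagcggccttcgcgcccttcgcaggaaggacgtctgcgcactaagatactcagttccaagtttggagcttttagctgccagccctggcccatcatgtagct
MAP2K6, start 2, chr17:69502012-69502311, plus strand: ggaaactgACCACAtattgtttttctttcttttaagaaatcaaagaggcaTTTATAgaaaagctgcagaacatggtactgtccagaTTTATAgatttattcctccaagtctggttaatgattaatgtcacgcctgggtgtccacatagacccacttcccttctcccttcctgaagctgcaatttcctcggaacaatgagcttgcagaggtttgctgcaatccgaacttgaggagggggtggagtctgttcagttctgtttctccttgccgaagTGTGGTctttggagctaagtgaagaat
MAP2K3, start 1, chr17:21284461-21284760, plus strand: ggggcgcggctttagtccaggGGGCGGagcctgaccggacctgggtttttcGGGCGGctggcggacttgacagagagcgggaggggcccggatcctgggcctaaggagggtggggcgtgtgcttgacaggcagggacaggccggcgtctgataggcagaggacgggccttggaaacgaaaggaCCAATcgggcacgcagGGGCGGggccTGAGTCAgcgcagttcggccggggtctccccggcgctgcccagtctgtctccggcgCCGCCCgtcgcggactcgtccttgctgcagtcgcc
MAPK11, start 1, chr22:50270331-50270630, minus strand: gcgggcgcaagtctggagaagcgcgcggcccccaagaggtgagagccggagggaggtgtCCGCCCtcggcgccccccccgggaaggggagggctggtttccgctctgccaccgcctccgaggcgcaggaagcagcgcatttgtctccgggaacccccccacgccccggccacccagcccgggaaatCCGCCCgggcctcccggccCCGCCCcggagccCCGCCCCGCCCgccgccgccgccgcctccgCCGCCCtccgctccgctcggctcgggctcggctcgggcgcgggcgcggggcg

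MAP2K6 start 1 held 1 GC box and start 2 held 2 TATA box and 2 RUNX matches. MAPK11 held 6 GC box matches, of which a pair overlapped by 1 base, and no other motif. MAP2K3 start 1 held 4 GC boxes, 1 CCAAT box and 1 AP-1 match, TGAGTCA, which begins 41 bases before the start. No match to one motif overlapped a match to another. Over all 35116 RefSeq start regions of this length, 45.0% held the GC box, 34.6% the CCAAT box, 13.1% the RUNX letters, 11.5% the TATA box, 7.71% the AP-1 letters and 1.85% the CRE. GC content was 80.7% for MAPK11, 70.7% for MAP2K3 start 1, and 55.0% and 43.3% for MAP2K6 starts 1 and 2, against a median of 58.7% over all regions. A further MAP2K3 start, at chr17:21287786-21288085 on the plus strand with a GC content of 60.3%, held none of the 6 motifs and is not printed. A match is only a run of letters, no match says only that these letters are absent from the window, and gene-level counts do not tell which start of MAP2K6 or MAP2K3 was used.

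MAP2K4 and MAP2K7 are the MAP2Ks of JNK, and MAP2K4 can also act on p38. MAP2K4 was at 12.9, 13.6 and 13.3 CPM in SPNS2 libraries and 12.2, 13.3 and 11.5 CPM in empty vector libraries. The groups overlapped, since empty vector library 2 lay within the SPNS2 range. MAP2K7 was at 53.7, 52.7 and 54.5 CPM with SPNS2 and 54.8, 55.4 and 57.9 CPM with the empty vector. All SPNS2 libraries were below all empty vector libraries here, by a narrow gap. Neither passed: the log2 fold change was 0.11 (SE 0.0685, adjusted p = 0.280 by edgeR) for MAP2K4 and -0.06 (SE 0.0339, adjusted p = 0.220) for MAP2K7. The counts of MAP2K4 per MAP2K7 count were 0.240, 0.258 and 0.244 with SPNS2 and 0.222, 0.240 and 0.198 with the empty vector. These ranges touched, with a log2 difference of 0.17 and an exact permutation p of 0.2 (n = 3 each, two-sided; 0.2 adjusted over the 5 ratios).

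**Figure D2:**
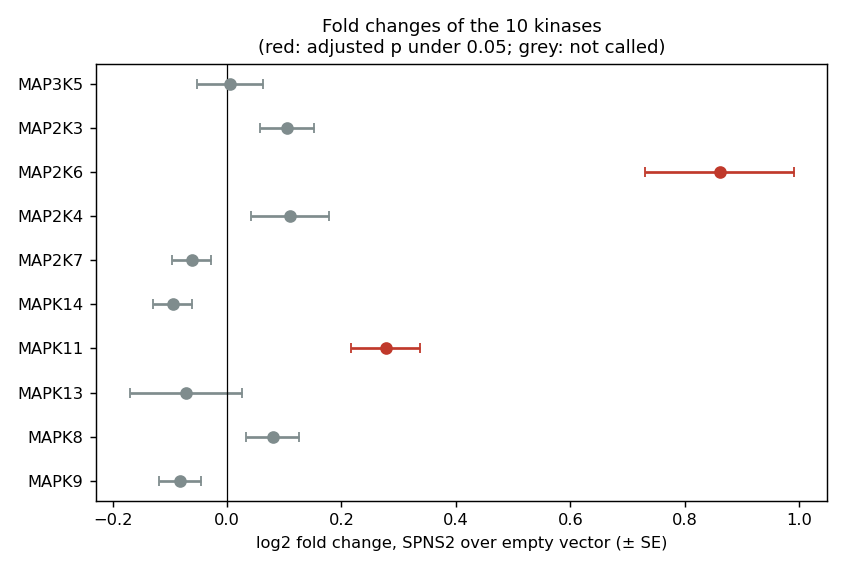
Log2 fold change of each kinase transcript, SPNS2 over empty vector (x axis), with its standard error, in the order MAP3K, MAP2K, p38, JNK. MAP2K6 (0.86) and MAPK11 (0.28) are the red points with an adjusted p under 0.05, and the 8 grey points lie between -0.10 and 0.11.

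The p38 genes of the set were MAPK14 (p38 alpha), the general form, MAPK11 (p38 beta), its closest relative, and MAPK13 (p38 delta). MAPK11 (ENSG00000185386) rose. It was at 14.8, 15.3 and 16.1 CPM in SPNS2 libraries, against 13.3, 12.6 and 12.2 CPM in empty vector libraries. The lowest SPNS2 library was above the highest empty vector library. The log2 fold change was 0.28 (SE 0.0600, adjusted p = 0.00654 by edgeR), a 1.21-fold rise, and the pooled counts of 1502 with SPNS2 and 1263 with the empty vector gave a ratio of 1.21 (exact 95% counting interval 1.12 to 1.31). MAPK11 passed in all 6 fits that left out a library, with log2 values of 0.24 to 0.31 and adjusted p of 0.00809 to 0.0307.

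MAPK14 was the most abundant kinase of the set. It was at 111, 119 and 112 CPM with SPNS2 and 122, 124 and 119 CPM with the empty vector. SPNS2 library 2 stood at the level of empty vector library 3, and the groups overlapped there. The log2 fold change was -0.10 (SE 0.0347, unadjusted p = 0.0190, adjusted p = 0.0687 by edgeR), just outside the threshold. Without SPNS2 library 2 it was -0.13 with an adjusted p of 0.0315, and without the filter on low counts the adjusted p was 0.0470; in those fits 9.17% and 9.08% of all features were called lower. In the other 5 fits that left out a library MAPK14 did not pass, and its call therefore turned on that single library and on the filter.

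MAPK13 was scarce, at 4.75, 5.13 and 4.95 CPM with SPNS2 and 5.32, 5.34 and 4.93 CPM with the empty vector. The groups overlapped, with a log2 fold change of -0.07 (SE 0.0981, adjusted p = 0.645). With 154 to 167 counts in SPNS2 libraries and 152 to 205 in empty vector libraries, the standard error of MAPK13 was about as large as the change seen for MAPK14.

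The p38 genes moved unequally within the same libraries. MAPK11 and MAPK13 together had 0.177, 0.171 and 0.188 counts per MAPK14 count with SPNS2 and 0.152, 0.144 and 0.145 with the empty vector. The log2 ratio differed by 0.28, with no overlap (exact two-sided permutation p = 0.1, n = 3 each; 0.125 adjusted over the 5 ratios). MAPK11 alone, a ratio added after the values were seen, had 0.134, 0.128 and 0.143 counts per MAPK14 count with SPNS2 and 0.108, 0.101 and 0.103 with the empty vector. This log2 ratio was -2.89 ± 0.0823 with SPNS2 and -3.26 ± 0.0503 with the empty vector (SD, n = 3 each), a difference of 0.37 (exact permutation p = 0.1, the smallest possible; 0.125 adjusted over the 5 ratios).

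**Figure D3:**
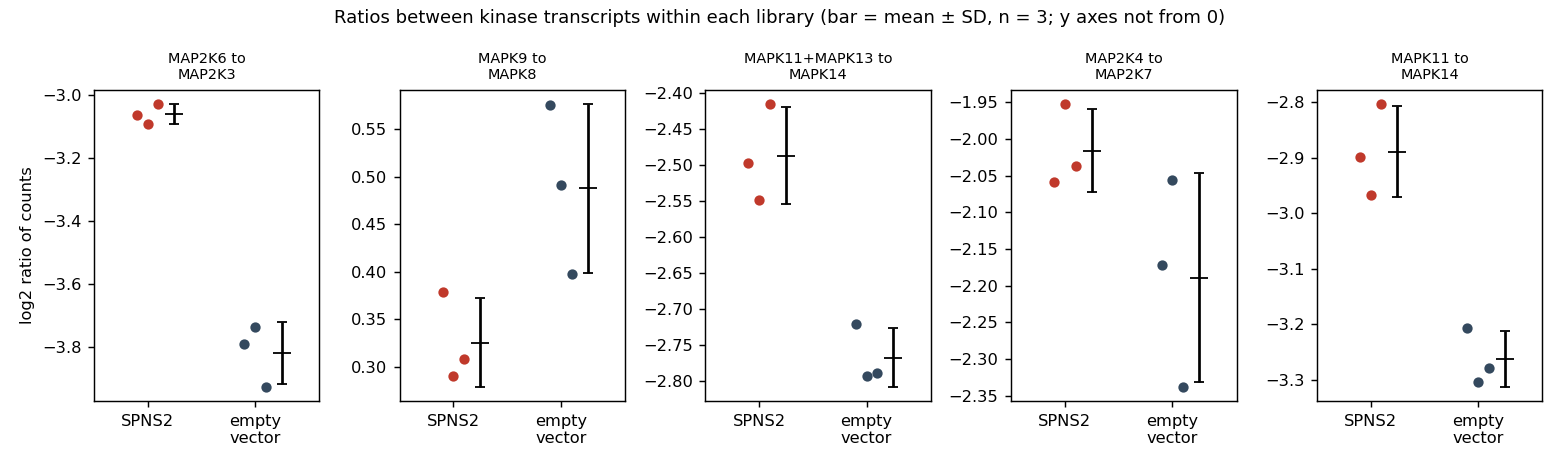
Log2 ratio of counts between kinases of one step within each library (y axes do not start at 0), with SPNS2 libraries in red, empty vector libraries dark and bars for mean ± SD. The SPNS2 libraries lie above the empty vector libraries for MAP2K6 to MAP2K3 and for the p38 ratios, below them for MAPK9 to MAPK8, and overlap them for MAP2K4 to MAP2K7.

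MAPK8 (JNK1) and MAPK9 (JNK2) are the JNK genes found in most tissues. MAPK8 was at 49.0, 49.3 and 49.9 CPM in SPNS2 libraries and 43.1, 48.7 and 48.8 CPM in empty vector libraries. Only empty vector library 1 stood clearly apart, and without it the log2 fold change was 0.02, against 0.08 with all libraries (SE 0.0471, adjusted p = 0.255 by edgeR). MAPK9 was at 63.7, 60.2 and 61.8 CPM with SPNS2 and 64.1, 68.5 and 64.2 CPM with the empty vector. All SPNS2 libraries lay below, the nearest pair being 63.7 CPM with SPNS2 and 64.1 CPM with the empty vector. The log2 fold change of MAPK9 was -0.08 (SE 0.0368, unadjusted p = 0.0464, adjusted p = 0.131), so neither JNK gene passed.

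Set against each other, there were 1.30, 1.22 and 1.24 MAPK9 counts per MAPK8 count with SPNS2 and 1.49, 1.41 and 1.32 with the empty vector. The log2 ratio was 0.33 ± 0.0471 with SPNS2 and 0.49 ± 0.0891 with the empty vector (SD, n = 3 each), a difference of -0.16 without overlap (exact permutation p = 0.1, two-sided; 0.125 adjusted over the 5 ratios). Without empty vector library 1 this difference was -0.12. The third JNK gene, MAPK10 (JNK3), best known from brain, had 68 to 86 counts with SPNS2 and 68 to 84 with the empty vector (log2 fold change 0.04, adjusted p = 0.883). The fourth p38 gene, MAPK12 (p38 gamma), was at 88.4, 87.6 and 92.2 CPM with SPNS2 and 94.7, 89.0 and 88.1 CPM with the empty vector (log2 fold change -0.02, adjusted p = 0.724). MAPK12 is the RefSeq neighbour of MAPK11 on GRCh38.p14, and MAPK13 that of MAPK14. MAPK12 shares 28.7% of its 31-base stretches with other genes, nearly all with HDAC10, and its count is uncertain.

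Levels were ranked per kilobase of the longest GENCODE 29 transcript. In SPNS2 libraries the order was MAPK14 (26.4 CPM per kilobase), MAP2K7 (15.6), MAPK9 (12.9), MAP2K3 (12.3), MAPK8 (8.17), MAPK11 (6.33), MAP3K5 (3.91), MAP2K4 (3.44), MAPK13 (0.798) and MAP2K6 (0.263). Empty vector libraries gave the same order, from 28.2 CPM per kilobase for MAPK14 to 0.145 for MAP2K6. The 3 libraries of neighbours in the order did not overlap, except MAPK9 and MAP2K3 in SPNS2 libraries, at 12.5 to 13.2 CPM per kilobase for MAPK9 and 11.98 to 12.5 for MAP2K3. The length matters: with the median protein-coding transcript, a choice added after the values were seen, MAP2K3 moved to the second place (32.3 with SPNS2 and 30.0 with the empty vector) and MAP2K6 reached 2.34 with SPNS2 and 1.28 with the empty vector. By this length MAP2K6 (2.33 to 2.34) and MAPK13 (2.32 to 2.50) overlapped in SPNS2 libraries, and MAP2K3 and MAPK9 in empty vector libraries, so the order of each pair was not resolved there. MAP2K6 has a longest transcript of 13.4 kilobases against a median of 1.51, so its level per length is the least certain.

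Relatives of this kind can draw reads from each other, so the transcripts were compared. In GENCODE 29, 0 of 16760 stretches of 31 bases in MAP2K6 transcripts and 0 of 2769 in MAPK11 transcripts occur in another p38 or JNK kinase of the set or in MAPK10 or MAPK12. MAPK11 and MAPK14 share none with any other gene that has a row. MAP2K6 shares 1.13%, and MAP2K4 has the largest share of the 10, 11.7%, most of it with the pseudogene MAP2K4P1.

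Other genes that followed the pattern of MAP2K6 were ranked by the Pearson correlation of log2 CPM, with 0.5 added, over the 6 libraries. Among 11837 features with a mean of at least 1 CPM the highest were LPP, SLA2, OLFM4, ARSD and PDE4B, with r of 0.997 to 0.999. All 5 were higher with SPNS2, for example OLFM4 at 4.29 ± 0.166 CPM with SPNS2 and 2.20 ± 0.201 CPM with the empty vector (SD, n = 3 each). With 6 points that fall into the study's groups, a correlation of this kind largely restates the difference between groups.

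Upstream of the set, 23 MAP3K and MAP4K kinases other than MAP3K5 were tested. Of these 3 rose and 4 fell (30.4% called, against 24.5% of all tested features), with a median log2 fold change of -0.03 against 0.00 over all features. MAP4K4 was at 224 ± 4.57 CPM with SPNS2 and 193 ± 2.45 CPM with the empty vector, and TAOK3, a MAP3K of the p38 arm, at 329 CPM with SPNS2 and 279 CPM with the empty vector (± SD, n = 3 each). MAP3K21 fell by 0.34 and TNIK by 0.46 on the log2 scale, both in all 6 fits that left out a library. MAP3K4 (-0.13, adjusted p = 0.0244) and TAOK2 (-0.13, adjusted p = 0.0383) did not hold: without SPNS2 library 1 or 3 or empty vector library 1 or 3, MAP3K4 had adjusted p of 0.0658 to 0.0895, and TAOK2 lost its call without any library except empty vector library 2 (0.0570 to 0.121). MAP3K2, named after its value was seen, was called with all 6 libraries (adjusted p = 0.0496) and in none of the 6 smaller fits. The number that rose in this list was 2 in every other fit run, namely RLE, no filter, DESeq2, limma voom, the replicate block and each left-out library. Only 2 genes of the list fell without SPNS2 library 1 or 3 or without empty vector library 1 or 3.

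Of 18 tested scaffolds and regulators, 3 rose and 1 fell (22.2% called, against 24.5% of all tested features), with a median of 0.01. RAC1, a small GTPase above the MAP3Ks, was at 95.8 ± 2.20 CPM with SPNS2 and 82.4 ± 3.95 CPM with the empty vector (SD, n = 3 each). TAB3, a partner of MAP3K7, had a log2 fold change of 0.19 and the JNK scaffold MAPK8IP3 one of 0.14, and 1 gene of the list rose without SPNS2 library 2. TAB3 lost its call without SPNS2 library 1 or 2 (adjusted p = 0.0535 and 0.0844 by edgeR), and MAPK8IP3 without SPNS2 library 2 or 3 or empty vector library 2 or 3 (0.0758 to 0.103). TRAF2 (-0.16) held only without empty vector library 3, with adjusted p of 0.0558 to 0.162 in the other 5 fits.

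Among 27 substrates and further targets of p38 and JNK, 7 rose and 4 fell (40.7% called, against 24.5% of all tested features). The list median was 0.03. JUN, the transcription factor that names the JNK kinases, was at 26.0 ± 0.727 CPM with SPNS2 and 41.8 ± 1.68 CPM with the empty vector, and JUND at 121 ± 2.39 CPM with SPNS2 and 147 ± 2.90 CPM with the empty vector (SD, n = 3 each). ZFP36, an mRNA-destabilising protein inactivated by the p38 arm, rose by 0.28, and the transcription factors ATF7, MEF2D and MEF2C rose by 0.18, 0.18 and 0.14 on the log2 scale. BCL2L11, a death-promoting protein of the BCL2 family, MEF2A and MAPKAPK3 made up the rest of those that rose (0.25, 0.12 and 0.08), and MEF2A and MAPKAPK3 were each called in 1 of the 6 fits that left out a library. These 3 were named after their values were seen. The other genes that fell were HSPB1 (-0.17) and MAPKAPK5 (-0.13), named after their values were seen. Without SPNS2 library 3 only 2 of the list fell, HSPB1 having an adjusted p of 0.0507 and MAPKAPK5 one of 0.0707. MAPKAPK5 was also not called without SPNS2 library 1 or empty vector library 1 or 3 (0.0555 to 0.0698).

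Of 13 tested phosphatases of MAP kinase pathways, not all of which act on p38 or JNK, 2 rose and 3 fell. The called share was 38.5%, against 24.5% of all tested features, with a median log2 fold change of -0.03. PPP5C, which inactivates MAP3K5, was at 126 ± 5.43 CPM with SPNS2 and 148 ± 3.48 CPM with the empty vector (SD, n = 3 each). DUSP4 fell by 0.70 and DUSP7 by 0.18, while DUSP22 rose by 0.17 on the log2 scale. DUSP8, a phosphatase of JNK and p38, had 30, 11 and 14 counts with SPNS2 and 6, 5 and 5 counts with the empty vector. Its log2 fold change of 1.78 (adjusted p = 0.0191 by edgeR) rested on SPNS2 library 1, without which it was 1.23 (adjusted p = 0.110), and it was not called without empty vector library 1 or 3 (0.0550 and 0.0602). In those 3 fits 1 phosphatase rose, and DESeq2 gave DUSP8 no adjusted p.

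Of 10 tested genes of other MAPK and MAP2K groups, MAPK12 and MAPK10 included, 0 rose and 1 fell. The called share was 10%, against 24.5% of all tested features. At an unadjusted p under 0.05, 2 were higher and 1 lower in edgeR, against 18% and 18.2% of all features. DESeq2 called 0 in either direction, against 8.79% higher and 10.3% lower of all features. By limma voom 0 were higher and 1 lower, against 11.9% and 12.4% of all features. The gene that fell was MAPK6, at 31.4 ± 0.469 CPM with SPNS2 and 34.8 ± 1.92 CPM with the empty vector (SD, n = 3 each; adjusted p = 0.0409), and it was not called without SPNS2 library 1, 2 or 3 or empty vector library 2 (0.0796 to 0.130). Without SPNS2 library 1, and likewise without empty vector library 2, 1 gene of this list was called higher.

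**Figure D4:**
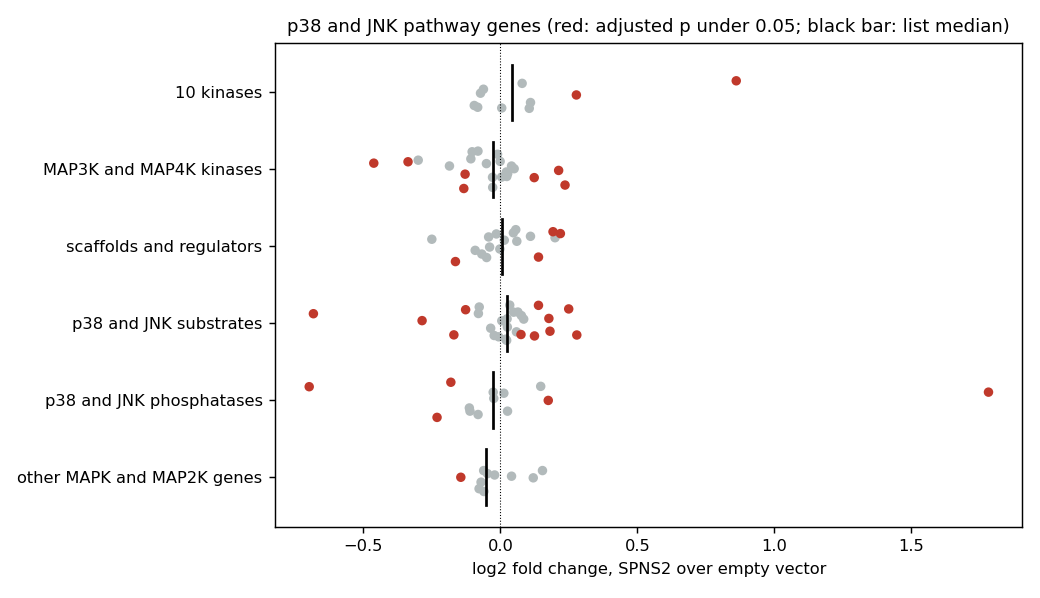
Log2 fold change, SPNS2 over empty vector (x axis), of the 10 kinases and of each tested gene in 5 pathway lists. Points are genes, red where the adjusted p was under 0.05 and grey otherwise, and black bars are medians, which lie between -0.05 and 0.04; the point at 1.78 is DUSP8.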

How the data were processed

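Polyadenylated RNA of 6 ME-1 libraries had been sequenced after a stranded TruSeq mRNA preparation, as the labels' protocols state. The deposited values are estimated counts for each gene, made with Salmon per the submitters' processing notes; its version, the genome build and the annotation are stated in none of the sources used here. All deposited values were whole numbers (0 were not). Symbols were found for 29081 of 34370 Ensembl rows. Samples were grouped by title. The 10 kinases and the gene lists were chosen with earlier results of these data known.

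Features were kept by filterByExpr (minimum count 10, minimum total 15). Library scaling used TMM, with factors between 0.993 and 1.01. The comparison was made by the quasi-likelihood test of edgeR 4.0.16 with group as the only term and Benjamini-Hochberg adjustment over all features (limma 3.58.1, DESeq2 1.42.0 and R 4.3.3 were also used). A standard error is the size of the log2 fold change divided by the root of its F statistic. The biological coefficient of variation was 4.32%. Replicate libraries differed beyond sampling noise (chi-square per degree of freedom 3.11 to 6.09). Counts were simulated for this comparison over 13308 features, with far fewer features changed than were called in the data. The procedure recovered 42% of 1.15-fold, 56% of 1.25-fold, 84% of 1.5-fold and 94% of 2-fold changes, with 5 false among 143 calls. Ratios were compared by exact two-sided permutation. Intervals are exact, at 95%, and cover counting error only. The list genes named are those called, or the 6 with the smallest p where more were called, and others are marked as named after their values were seen. Alternatives were RLE size factors, no filter, DESeq2, limma voom, a replicate block and leaving out each library. Protein sequences were not used here.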

Additional observations from a re-analysis of the deposited data

How the results depend on the processing

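The 2 higher calls, MAP2K6 and MAPK11, held under RLE size factors, no filter, DESeq2, limma voom and each left-out library. The count of kinases called lower, 0 with all libraries, was 1 with no filter on low counts and 0 to 1 over the fits without a single library; the gene was MAPK14 in each case. The sign of MAP3K5, never called, turned without SPNS2 library 3 (-0.0455), empty vector library 2 (-0.0107) or empty vector library 3 (-0.0149), and its log2 values ran from -0.0455 to 0.0425 over those 6 fits. The 5 ratios kept their direction without each library and with a pseudocount of 1. Lengths of median protein-coding transcripts and the ratio of MAPK11 to MAPK14 were chosen after seeing the data. Features called numbered 3263, against 2246 to 2738 without a single library and 2543 with DESeq2. Equal replicate numbers did not pair the libraries (correlations of deviations -0.0399 to 0.0116 for equal numbers). With a replicate block 2723 features were called, MAP2K6 had an adjusted p of 0.00309 and MAPK11 one of 0.0205. MAP3K4, TAOK2, TRAF2 and MAPK6 were no longer called with the block (0.0521, 0.0505, 0.0662 and 0.0503). The MAP3K and MAP4K kinases called higher then numbered 2 in place of 3, and the substrates and further targets 6 in place of 7. Depth limits MAP2K6 most among the 10 kinases, as the one with the fewest counts. In simulated counts 42% of the smallest changes tried were recovered. The simulation changed far fewer features, with 143 calls against 3263 in the data, so adjustment was stricter there. Its shares are therefore not the power for these kinases. Changes of the size seen for the kinases that were not called could still be missed.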
